A study of Mus musculus with 9 samples.

Results

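The expression of complement genes was examined in a mouse pancreatic cancer cell line. The members were 10 genes taken by symbol: C1ra, C1s1, C2, C3, Cfb, Cfp, Cfi, Serping1, Clu and Cd59a. All probe sets annotated to a single one of them were used, 16 of 45037 on the array. They covered 9 of the 10 genes, because the annotation used here names no probe set for C3, which was not analysed here. There was 1 probe set each for C1ra, C1s1, Cfb, Cfi and Serping1, 2 each for Cfp and Cd59a, 3 for C2 and 4 for Clu. The members are given by name, with no threshold on a value, but the list was drawn up with earlier results of these arrays known.

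The cells were line 170#3, of mixed C57BL6, FVB and 129Sv background, grown in monolayer in DMEM with fetal bovine serum. There were 3 groups by stable transfection, with 3 arrays each: cells with beta-catenin (gene Ctnnb1), which carries the Wnt signal into the nucleus, cells with ICAT (gene Ctnnbip1), an inhibitor that binds beta-catenin and keeps it from TCF factors, and control cells. Neither the promoters of the transgenes, nor what the control cells carried, nor whether a group was 1 clone or a pool is stated in the labels. The labels call the samples biological replicates without naming separate transfections, so a p-value here reflects no more than how far these arrays differed among themselves.

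Complement is a cascade of plasma proteases that ends in cell lysis and in tagging of targets for uptake. The classical pathway starts when C1q activates the proteases C1r and C1s, which cleave C4 and C2, and the lectin pathway starts with the related MASP proteases. In the alternative pathway factor B forms the C3-cleaving enzyme and properdin stabilises it. Factor I, C1 inhibitor, clusterin and CD59 restrain the cascade at successive steps. The liver makes most of the circulating proteins, but fibroblasts, macrophages and many tumour cells make some of them as well, and inflammatory cytokines and interferons are known to raise several of these genes.

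Values are log2 expression by RMA, 1 value per probe set and array. Array medians lay between 6.21 and 6.29, and the lowest correlation between arrays of 1 group was 0.997 in beta-catenin cells, 0.994 in ICAT cells and 0.998 in control cells. The median SD of a probe set between replicates was 0.0857 in beta-catenin, 0.115 in ICAT and 0.0714 in control cells. Probe sets that reached a log2 value of 5 on 3 or more arrays, 33545 in all, were tested with limma, and all 16 member probe sets were among them, with a lowest value on any array of 5.09. A probe set was called at an adjusted p (Benjamini-Hochberg over all tested) under 0.05. The brightest Ctnnb1 probe set averaged 12.88 ± 0.0146 in beta-catenin, 12.88 ± 0.107 in ICAT and 12.68 ± 0.0136 in control cells (SD, n = 3 each), and the brightest Ctnnbip1 probe set 8.78 ± 0.0545, 8.79 ± 0.151 and 8.64 ± 0.0266 in the same order. Ctnnb1 was called higher in beta-catenin cells (log2 difference 0.20, limma adjusted p = 0.049) and not in ICAT cells (0.19, adjusted p = 0.0505), and Ctnnbip1 was called in neither. Whether these probe sets read the transfected sequences is not known here.

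The changes among the members lay in 4 genes, the C1 proteases C1ra and C1s1, clusterin (Clu) and, to a lesser extent, properdin (Cfp). In beta-catenin cells 7 of 16 member probe sets were called higher by limma and none lower (at an unadjusted p under 0.05, 8 and 0), where 29.7 percent of all tested probe sets were called, 16 percent higher and 13.7 percent lower. In ICAT cells 7 of 16 were higher and none lower (unadjusted, 8 and 1), where 31.6 percent of all were called, 15 percent higher and 16.6 percent lower. These were the single C1ra and C1s1 probe sets, all 4 Clu probe sets and 1 of the 2 Cfp probe sets in both lines. The median log2 difference over the 16 probe sets was 0.16 in beta-catenin cells and 0.18 in ICAT cells, against -0.03 and -0.02 over all tested probe sets. Both comparisons use the same 3 control arrays, so their calls are not independent of each other. Of the called member probe sets 5 differed by at least 2-fold in beta-catenin cells and 6 in ICAT cells. Over all tested probe sets 2.47 percent were higher by that much in beta-catenin cells and 1.91 percent in ICAT cells.

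**Figure D1:**
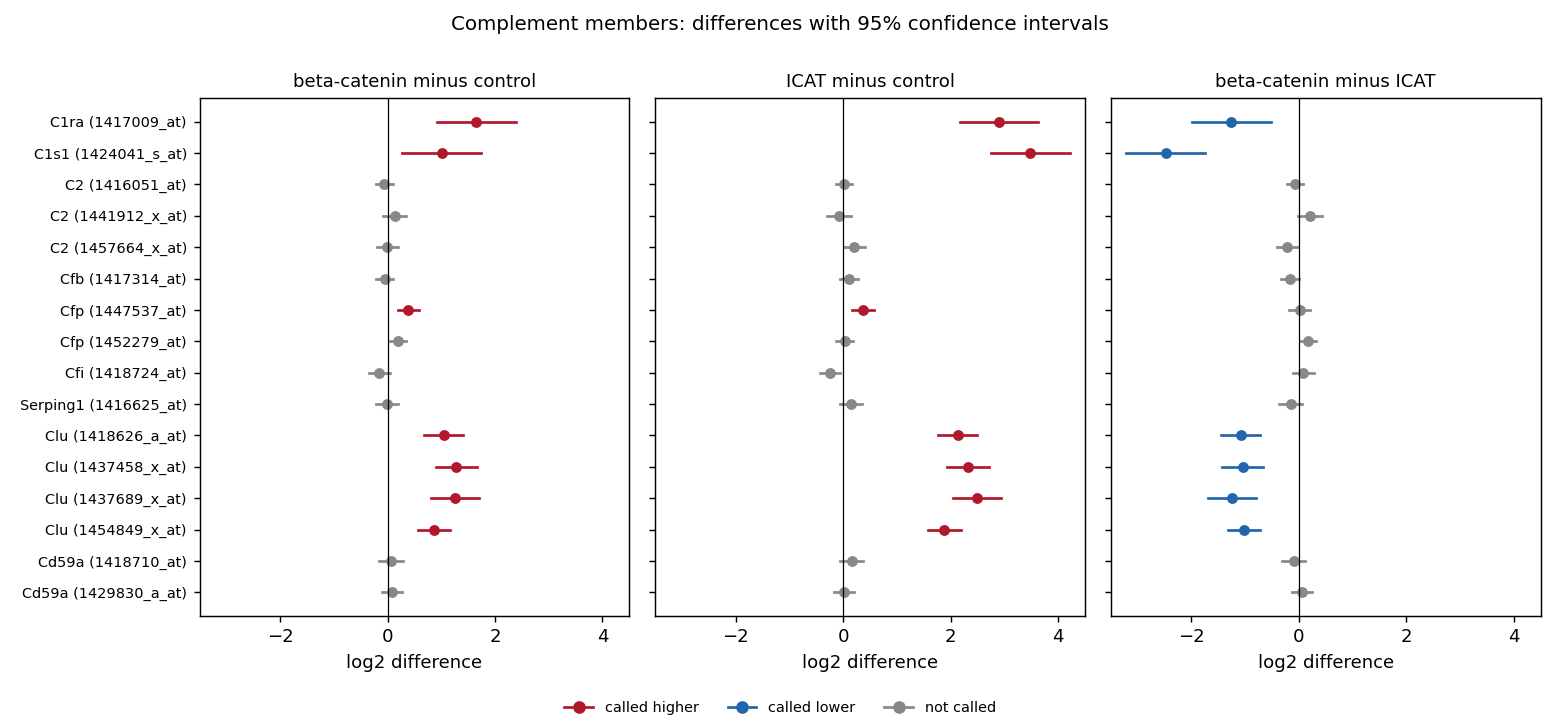
Log2 difference of each of the 16 member probe sets (points) with its 95% confidence interval from limma (lines) for beta-catenin minus control, ICAT minus control and beta-catenin minus ICAT. C1ra, C1s1 and the 4 Clu probe sets lie to the right of 0 in both comparisons with control and to the left of 0 in the third, whereas C2, Cfb, Cfi, Serping1 and Cd59a are drawn in grey, not called, in each.

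C1ra encodes the protease C1r, which cuts itself and then C1s when C1q binds its target. Its probe set 1417009_at had log2 expression of 7.09, 7.27 and 7.21 in beta-catenin cells, 9.42, 7.97 and 7.95 in ICAT cells and 6.01, 5.09 and 5.53 in control cells. No 2 of the groups overlapped, and the first ICAT array stood well above the other ICAT arrays. C1ra rose 3.13-fold in beta-catenin cells (log2 difference 1.65, SE 0.335, limma adjusted p = 0.00278) and 7.47-fold in ICAT cells (2.90, SE 0.335, adjusted p = 6.48e-05). It was 2.39-fold lower in beta-catenin than in ICAT cells (log2 difference -1.25, adjusted p = 0.0121), and without ICAT replicate 1 that difference was -0.77 (adjusted p = 0.0123). A further probe set, 1456437_x_at, matches both C1ra and the nearby gene C1rb and was not counted as a member. It lay at 6.42, 6.38 and 6.36 in beta-catenin cells, 8.27, 6.88 and 6.47 in ICAT cells and 4.37, 4.76 and 4.81 in control cells, again without overlap between the groups.

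C1s1 encodes C1s, the protease of the C1 complex that cleaves C4 and C2. Its probe set 1424041_s_at had log2 expression of 6.46, 7.0 and 6.62 in beta-catenin cells, 10.16, 8.84 and 8.52 in ICAT cells and 5.47, 6.04 and 5.56 in control cells. The 3 groups did not overlap, and the lowest ICAT array was above the highest beta-catenin array. C1s1 rose 2.01-fold in beta-catenin cells (log2 difference 1.0, SE 0.336, limma adjusted p = 0.0417). That call was lost without control replicate 1 or 3, without any 1 of the 3 beta-catenin arrays, or without ICAT replicate 2, with adjusted p from 0.0543 to 0.139 and log2 differences from 0.85 to 1.12. It was kept in 11 of 17 alternatives. Among these were only the 6 arrays compared (limma adjusted p = 0.0024), array weights (0.0009) and the fit without ICAT replicate 1 (0.00092). The main fit shares 1 spread over the groups, and the SD of C1s1 was 0.273 in beta-catenin, 0.872 in ICAT and 0.305 in control cells. In ICAT cells C1s1 rose 11.2-fold (log2 difference 3.48, SE 0.336, adjusted p = 1.85e-05), and without ICAT replicate 1 the log2 difference was 2.99 (adjusted p = 2.30e-06). The level in beta-catenin cells was 5.57-fold lower than in ICAT cells (adjusted p = 0.000153). The name of this probe set ends in _s_at, the array maker's mark for probes that match more than 1 transcript, so the similar gene C1s2 may share its signal.

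C1ra and C1s1 are neighbours on chromosome 6, with no other gene between them in the RefSeq table, and their transcripts rose together here. Over the 9 arrays their values correlated at r = 0.918, and at 0.852 without ICAT replicate 1. These are descriptions, since the arrays fall into 3 groups and share their controls. The promoter windows of both genes are shown because these 2 genes, adjacent but transcribed from separate promoters, had the largest rises of all members in ICAT cells. Each runs from 250 bases before to 50 bases after an annotated start, from RefSeq on build GRCm38.p6, written 5′ to 3′ on the gene's strand. Capitals mark matches to the motifs searched. C1ra lies at chr6:124512371-124512670 on the plus strand, and the more upstream of 2 listed C1s1 windows at chr6:124542310-124542609 on the minus strand.
C1ra: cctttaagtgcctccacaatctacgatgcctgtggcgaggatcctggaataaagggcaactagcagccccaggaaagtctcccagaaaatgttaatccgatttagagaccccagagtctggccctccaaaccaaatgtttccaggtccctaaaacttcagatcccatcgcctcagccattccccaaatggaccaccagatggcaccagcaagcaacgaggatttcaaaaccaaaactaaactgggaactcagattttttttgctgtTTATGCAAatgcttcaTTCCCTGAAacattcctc
C1s1: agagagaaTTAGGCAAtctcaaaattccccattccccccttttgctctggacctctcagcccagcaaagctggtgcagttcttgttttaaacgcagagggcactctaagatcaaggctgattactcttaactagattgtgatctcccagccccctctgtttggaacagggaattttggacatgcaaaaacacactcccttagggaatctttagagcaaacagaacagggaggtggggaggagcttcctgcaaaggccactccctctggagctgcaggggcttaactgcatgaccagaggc

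The motifs searched, on both strands, were an interferon response element (GAAA, any 2 bases, then GAAA again), a STAT site (TTCNNNGAA), a C/EBP site (TTGCNNAA), a TCF site (CTTTGAT) and the NF-kB site. The C1ra window held a C/EBP match from base 17 after the start and a STAT match from base 33, which do not overlap. The C1s1 window held a C/EBP match that begins at position -242 from the start and none of the other motifs. The other listed C1s1 window begins downstream of those letters and held no match to any of the 5 motifs. Of 32851 promoter windows in the RefSeq table, 10.8 percent held the C/EBP motif, 8.3 percent the STAT motif, 3.44 percent the interferon element, 3.73 percent the TCF motif and 8.46 percent the NF-kB motif. A match is a description of letters and not a measured site. The table held windows for 5 of the 10 members (C1ra, C1s1, C3, Cfp and Cd59a).

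**Figure D2:**
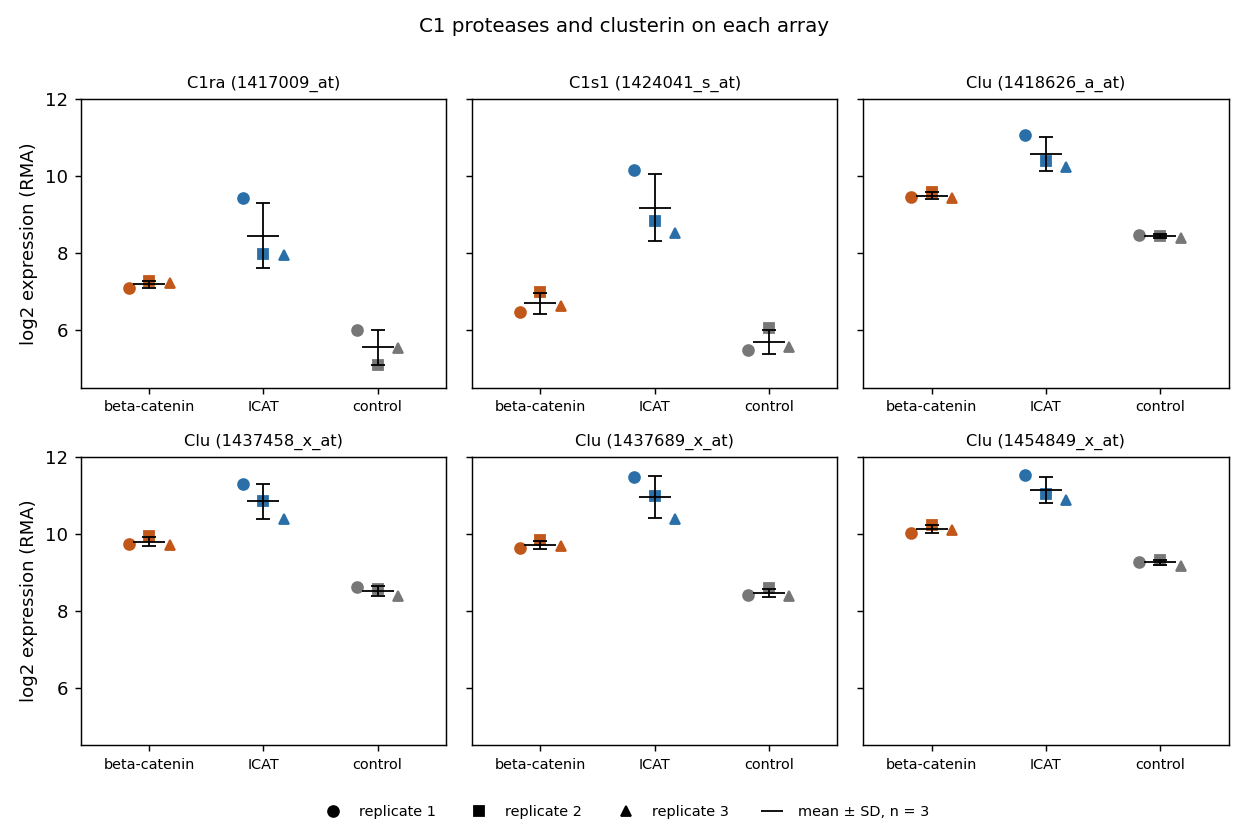
Log2 expression (RMA) of the C1ra, C1s1 and 4 Clu probe sets on each of the 9 arrays, by group, with the replicate number as the symbol and the mean ± SD of 3 arrays as the bar. Beta-catenin arrays lie between control and ICAT arrays in every panel, and the first ICAT array is the highest of all 9 in each.

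Clu encodes clusterin, a secreted chaperone that blocks insertion of the lytic complex into membranes. Its brightest probe set, 1454849_x_at, had log2 expression of 10.02, 10.22 and 10.10 in beta-catenin cells, 11.52, 11.02 and 10.86 in ICAT cells and 9.27, 9.31 and 9.17 in control cells. The groups did not overlap, with control lowest and ICAT highest. By this probe set the rise of Clu was 1.82-fold in beta-catenin cells (log2 difference 0.86, limma adjusted p = 0.000527). In ICAT cells it was 3.69-fold (log2 difference 1.88, adjusted p = 2.84e-06). The other 3 probe sets moved the same way, by 2.07-fold to 2.42-fold in beta-catenin cells and by 4.37-fold to 5.61-fold in ICAT cells. Beta-catenin cells had less Clu than ICAT cells by all 4 probe sets, with folds from 2.03 to 2.36 and adjusted p from 0.000149 to 0.000674. No alternative processing changed a call of any Clu probe set in any of the 3 comparisons.

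Cfp encodes properdin, the plasma protein that stabilises the alternative pathway's C3-cleaving enzyme and is known mainly from leukocytes. Probe set 1447537_at had log2 expression of 7.49, 7.53 and 7.49 in beta-catenin cells, 7.44, 7.42 and 7.60 in ICAT cells and 7.19, 7.25 and 6.91 in control cells. Both transfected groups lay wholly above control and overlapped each other. By this probe set Cfp rose 1.31-fold in beta-catenin cells (limma adjusted p = 0.00709). In ICAT cells the rise was 1.29-fold (adjusted p = 0.00857), without a called difference between the lines (log2 difference 0.01, 95% confidence interval -0.19 to 0.21). The other Cfp probe set, 1452279_at, did not pass in either line. It had 5.91, 5.78 and 5.73 in beta-catenin cells, 5.61, 5.64 and 5.64 in ICAT cells and 5.67, 5.54 and 5.62 in control cells, with adjusted p = 0.0523 and 0.836. The probe sets therefore disagree for ICAT cells, and the rise of Cfp rests on 1 of them. In beta-catenin cells the second passed with array weights, with median-centred arrays, with only the 6 arrays compared, and without beta-catenin replicate 3 or ICAT replicate 3 (adjusted p from 0.0129 to 0.0495).

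The other 5 members were not called in any of the 3 comparisons. C2 and Cfb encode the homologous proteases of the classical and alternative pathways and are neighbours on chromosome 17. Cfb had log2 expression of 5.83, 5.95 and 5.87 in beta-catenin cells, 6.02, 6.15 and 5.95 in ICAT cells and 6.0, 5.90 and 5.90 in control cells, and the groups overlapped. The brightest of the 3 C2 probe sets, 1441912_x_at, had 7.93, 7.84 and 7.75 in beta-catenin cells, 7.61, 7.83 and 7.44 in ICAT cells and 7.69, 7.83 and 7.61 in control cells. Here too the groups overlapped. The C2 probe sets did not move alike between the lines. In beta-catenin against ICAT cells the log2 difference was 0.22 for 1441912_x_at and -0.21 for 1457664_x_at (limma adjusted p = 0.127 and 0.0865). The arrays of these 2 groups did not overlap for 1457664_x_at, at 5.84, 5.85 and 5.99 in beta-catenin cells and 6.01, 6.18 and 6.14 in ICAT cells. Unlike the neighbours C1ra and C1s1, neither gene of this pair was called, though the difference between the pairs was not tested.

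Serping1 encodes C1 inhibitor, which inactivates C1r and C1s. It had log2 expression of 5.33, 5.09 and 5.23 in beta-catenin cells, 5.50, 5.36 and 5.26 in ICAT cells and 5.37, 5.16 and 5.13 in control cells, close to the filter on every array and with overlap between all groups. Cd59a encodes the membrane inhibitor CD59, which stops assembly of the lytic pore. Its brighter probe set, 1418710_at, had 6.93, 6.58 and 6.62 in beta-catenin cells, 6.91, 6.79 and 6.71 in ICAT cells and 6.74, 6.62 and 6.56 in control cells, again with overlap. Over the 7 probe sets of C2, Cfb, Serping1 and Cd59a the log2 differences ran from -0.06 to 0.13 in beta-catenin cells and from -0.08 to 0.21 in ICAT cells. Their 95% confidence intervals reached from -0.21 to 0.35 and from -0.31 to 0.41, so a change of more than 1.28-fold or 1.32-fold lies outside every one of these intervals. Between the lines the differences ran from -0.21 to 0.22, and limma called 2 of them when 1 array was left out, C2 1441912_x_at without ICAT replicate 2 (adjusted p = 0.0286) and Cfb without ICAT replicate 3 (adjusted p = 0.0402). RMA compresses differences of dim probe sets, so these bounds hold for the RMA scale.

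Cfi encodes factor I, the plasma protease that inactivates C3b and C4b. It had log2 expression of 6.33, 6.41 and 6.18 in beta-catenin cells, 6.31, 6.29 and 6.04 in ICAT cells and 6.44, 6.47 and 6.46 in control cells. Both transfected groups lay wholly below the control arrays, but neither difference was called (log2 difference -0.15 and -0.24, limma adjusted p = 0.224 and 0.0555). In ICAT cells it passed when 1 probe set per gene was tested, with a replicate block, with median-centred arrays, and without beta-catenin replicate 3 or ICAT replicate 1 (adjusted p from 0.0336 to 0.0491). In all, 9 of 16 member probe sets, Cfi among them, did not overlap between beta-catenin and control cells and 8 of 16 between ICAT and control cells. Over all tested probe sets 49.1 and 42.3 percent did not overlap.

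**Figure D3:**
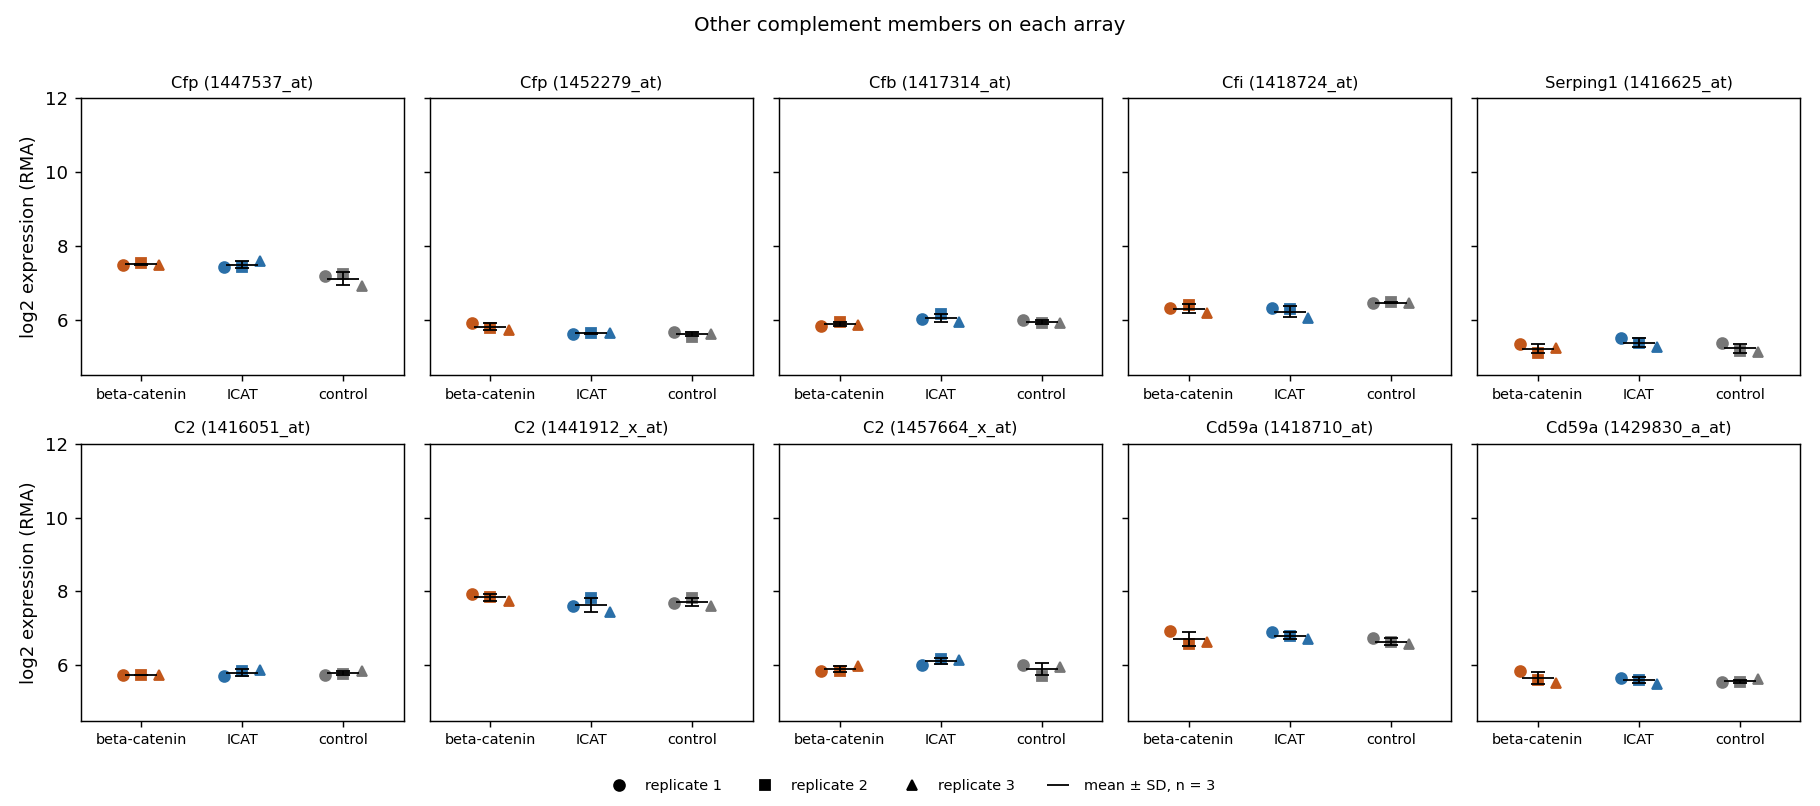
Log2 expression (RMA) of the 10 probe sets of Cfp, Cfb, Cfi, Serping1, C2 and Cd59a on each array, on the same scale as the plot of the C1 proteases and clusterin, with the mean ± SD of 3 arrays. The group means lie within 0.39 log2 units of each other in every panel, and single arrays of different groups can lie further apart.

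Between the transfected lines 6 member probe sets were lower in beta-catenin than in ICAT cells and none was higher by limma (at an unadjusted p under 0.05, 8 and 1), where 34.8 percent of all tested probe sets were called, 15.3 percent lower and 19.5 percent higher. All 6 differed by at least 2-fold, as did 1.9 percent of all probe sets in that direction. The groups did not overlap for 8 of 16 member probe sets, against 44 percent of all. The 6 called were C1ra, C1s1 and the 4 Clu probe sets, which are also the probe sets with the widest spread among ICAT arrays. On these 6, ICAT replicate 1 lay above the mean of the other 2 ICAT arrays by 0.58 to 1.49 log2 units. Over all tested probe sets 1.33 percent showed an excess of at least 0.5 on this array, and 0.277 percent an excess of at least 1, as C1ra (1.46) and C1s1 (1.49) did. None of the other 10 member probe sets had an excess of 0.5. All 6 differences between the lines remained called without ICAT replicate 1. The spread of the same probe sets over the beta-catenin arrays was 0.179 to 0.531 log2 units from lowest to highest, against 0.657 to 1.65 over the ICAT arrays.

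Other measured lists were also above control in both lines by their summed signal, and their part in the result was not tested. The summed linear signal of 14 interferon-stimulated genes was 3463, 3924 and 3621 in beta-catenin cells, 9523, 4611 and 4803 in ICAT cells and 1873, 1820 and 1806 in control cells. That of 12 acute-phase and IL-6 or NF-kB response genes was 10750, 11410 and 11100 in beta-catenin cells, 27110, 11490 and 10880 in ICAT cells and 6863, 6722 and 6885 in control cells. In both lists ICAT replicate 1 was the highest array, as it was for C1ra, C1s1 and Clu. Of 18 tested interferon-stimulated probe sets 10 were called higher in beta-catenin cells and all 18 in ICAT cells. Of 20 acute-phase probe sets 10 were higher and 1 lower in beta-catenin cells, and 13 were higher in ICAT cells. By the brightest probe set Nfkbia, Ccl2, Ptx3, Steap4 and Il6 were called higher in both lines, and Socs3 in ICAT cells only. Saa3, Lcn2, Hp and Cxcl1 were called in neither, and Icam1 and Orm1 had means under 5 in every group. Bright genes weigh most in the sum, such as Ptx3 (mean log2 level 11.19 in beta-catenin, 10.41 in ICAT and 7.07 in control cells). Between the lines 13 of the 18 interferon-stimulated probe sets were lower in beta-catenin than in ICAT cells and 0 higher. Of the 20 acute-phase probe sets 4 were lower and 1 higher. Median log2 differences were 0.64 and 1.68 for the interferon list and 0.49 and 0.83 for the acute-phase list, in beta-catenin and ICAT cells.

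Markers of cell types that make complement were measured as well. The summed signal of 8 fibroblast markers ranged from 3407 to 3940 in beta-catenin cells, from 14500 to 15080 in ICAT cells and from 5174 to 5363 in control cells, and it mostly follows its brightest gene in control cells, the collagen gene Col1a2 (mean log2 level 10.78 in beta-catenin, 13.62 in ICAT and 12.17 in control cells). The growth factor receptor gene Pdgfra had 10.62, 10.60 and 8.58 in the same order, and the collagen gene Col1a1 had 7.25, 7.98 and 6.12, so both were higher in beta-catenin cells where the sum was lower. Of 12 tested fibroblast probe sets 5 were higher and 3 lower in beta-catenin cells (median log2 difference 0.23), and 8 were higher in ICAT cells (median 0.95). Thy1, Fap and Lum had a mean under 5 in every group. For 9 leukocyte and macrophage markers the sums were 665.8 to 685 in beta-catenin, 776.9 to 853.6 in ICAT and 800.7 to 843.9 in control cells, with 2 of 9 tested probe sets lower in beta-catenin cells and none called by limma in ICAT cells (0 at an unadjusted p under 0.05). Ptprc and Itgam had means under 5 throughout. For 5 hepatocyte markers the sums were 407 to 442.7, 385.3 to 443.3 and 444.5 to 462.8 in the same order of groups, and Fgb was under 5. Of 6 tested hepatocyte probe sets 1 was lower in ICAT cells. For 5 endothelial markers they were 283.9 to 321.4, 277.3 to 302.1 and 277.4 to 302.9, with none of 2 tested probe sets called by limma in either line (0 unadjusted). Among 7 epithelial and ductal markers, Cdh1 had a mean of 3.54 in beta-catenin, 3.48 in ICAT and 3.48 in control cells, whereas Sox9 had 9.01, 9.54 and 9.01, so Cdh1, the gene of the epithelial adhesion protein E-cadherin, lay under 5 in a line labelled as pancreatic cancer. The epithelial surface gene Epcam had 7.50, 7.52 and 7.48, and Krt18, a keratin gene, 6.79, 8.51 and 7.23. Of 10 tested epithelial and ductal probe sets 7 were higher in ICAT cells than in control cells, and 7 were lower in beta-catenin than in ICAT cells. The sum of these 7 genes ranged from 961.6 to 988.4 in beta-catenin, from 1344 to 1709 in ICAT and from 971.3 to 1034 in control cells. Of 3 acinar markers the sum was 684.3 to 751.8, 427.3 to 472.9 and 343.8 to 363.5. This sum mostly follows 1 gene, Cela1 (mean log2 level 9.35, 8.54 and 8.14 in the same order of groups). Cpa1 had 5.40, 5.42 and 5.30 and was not called in either line by limma, and Ptf1a was under 5 in every group. Fewer cells of a type and less RNA per cell cannot be told apart in such bulk samples.

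A further 49 complement genes were listed, of which 37 had single-gene probe sets, and 37 of their 64 probe sets passed the filter. In beta-catenin cells 6 of the 37 were called higher and 4 lower, and in ICAT cells 5 were higher and 3 lower, shares near or below those over all probe sets. The median log2 differences were -0.03 and -0.04, close to those over all probe sets. These calls against control lay in Masp1, C4bp, Cr1l, C1qbp, C3ar1 and C8g and in the ficolin genes Fcna and Fcnb. Between the lines 7 of the 37 were called higher in beta-catenin than in ICAT cells and 2 lower. Over all tested probe sets 19.5 percent were higher and 15.3 percent lower in that comparison.

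Masp1, which encodes lectin-pathway proteases related to C1r and C1s, rose in both lines. Its probe set 1438602_s_at had log2 expression of 10.74, 10.65 and 10.50 in beta-catenin cells, 10.29, 10.20 and 10.38 in ICAT cells and 9.50, 9.48 and 9.55 in control cells, without overlap. The rise was 2.17-fold in beta-catenin cells (limma adjusted p = 8.11e-07), 1.71-fold in ICAT cells (adjusted p = 2.58e-05), and the level was 1.27-fold higher in beta-catenin than in ICAT cells (adjusted p = 0.00526). The order of the lines was thus the reverse of that for C1ra, C1s1 and Clu, and no ICAT array of this probe set stood apart. Probe sets 1425985_s_at and 1438603_x_at gave similar values, at 2.10-fold and 2.12-fold in beta-catenin cells and 1.68-fold and 1.69-fold in ICAT cells. Probe set 1455346_at rose in beta-catenin cells (2.19-fold) but was not called in ICAT cells, at 5.73, 5.78 and 6.39 there (1.13-fold, adjusted p = 0.468), and 1419677_at lay below the filter.

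C1qbp, whose product binds the globular heads of C1q and also works in mitochondria, fell in ICAT cells. Probe set 1455821_x_at had log2 expression of 13.38, 13.41 and 13.47 in beta-catenin cells, 12.81, 12.75 and 12.87 in ICAT cells and 13.38, 13.34 and 13.36 in control cells. ICAT arrays lay wholly below both other groups, 1.46-fold lower than control (limma adjusted p = 6.51e-05), and the other probe set gave 1.46-fold as well (adjusted p = 0.000187). Neither C1qbp probe set was called in beta-catenin cells against control (adjusted p = 0.538 and 0.196), though the second passed with array weights (adjusted p = 0.0329). Between the lines both were higher in beta-catenin than in ICAT cells, 1.53-fold and 1.61-fold (adjusted p = 2.32e-05 and 2.95e-05).

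Of the regulators and receptors, Cr1l, which encodes the mouse membrane regulator Crry, rose 1.26-fold in beta-catenin cells by its bright probe set 1422563_at (9.34, 9.42 and 9.39 against 9.06, 9.03 and 9.04 in control cells, limma adjusted p = 0.00452). It was not called in ICAT cells, at 9.01, 8.99 and 9.22 (adjusted p = 0.82), and was 1.24-fold higher in beta-catenin than in ICAT cells (adjusted p = 0.00675). C3ar1, the receptor for the C3a fragment, fell in beta-catenin cells by both tested probe sets, 1.29-fold and 1.27-fold (adjusted p = 0.00816 and 0.0145), the second not without control replicate 2 (adjusted p = 0.0676). In ICAT cells only 1419483_at of C3ar1 was lower (1.28-fold, adjusted p = 0.0123), also not without control replicate 2 (adjusted p = 0.0589). C4bp, the fluid-phase regulator C4b-binding protein, passed the filter only through the transfected groups, at 5.30, 5.21 and 5.19 in beta-catenin cells, 5.34, 4.76 and 4.92 in ICAT cells and 4.36, 4.67 and 4.61 in control cells. C3ar1 was also lower in beta-catenin than in ICAT cells by 1419482_at (log2 difference -0.31, adjusted p = 0.0200), a call lost without beta-catenin replicate 2 or 3 or ICAT replicate 2 (adjusted p from 0.067 to 0.0885). The ficolin genes Fcna and Fcnb in beta-catenin cells, C8g in ICAT cells and Itgb2 between the lines made up the remaining calls. Each differed by 1.16-fold to 1.23-fold, and each call was lost when 1 or another array was left out, with adjusted p up to 0.14, 0.204, 0.16 and 0.113. Itgb2 passed the filter only through the ICAT group, where it was highest. It lay at 4.92, 4.90 and 4.76 in beta-catenin cells, 5.09, 5.21 and 5.04 in ICAT cells and 4.96, 5.10 and 4.88 in control cells. Its call between the lines is therefore a description only.

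**Figure D4:**
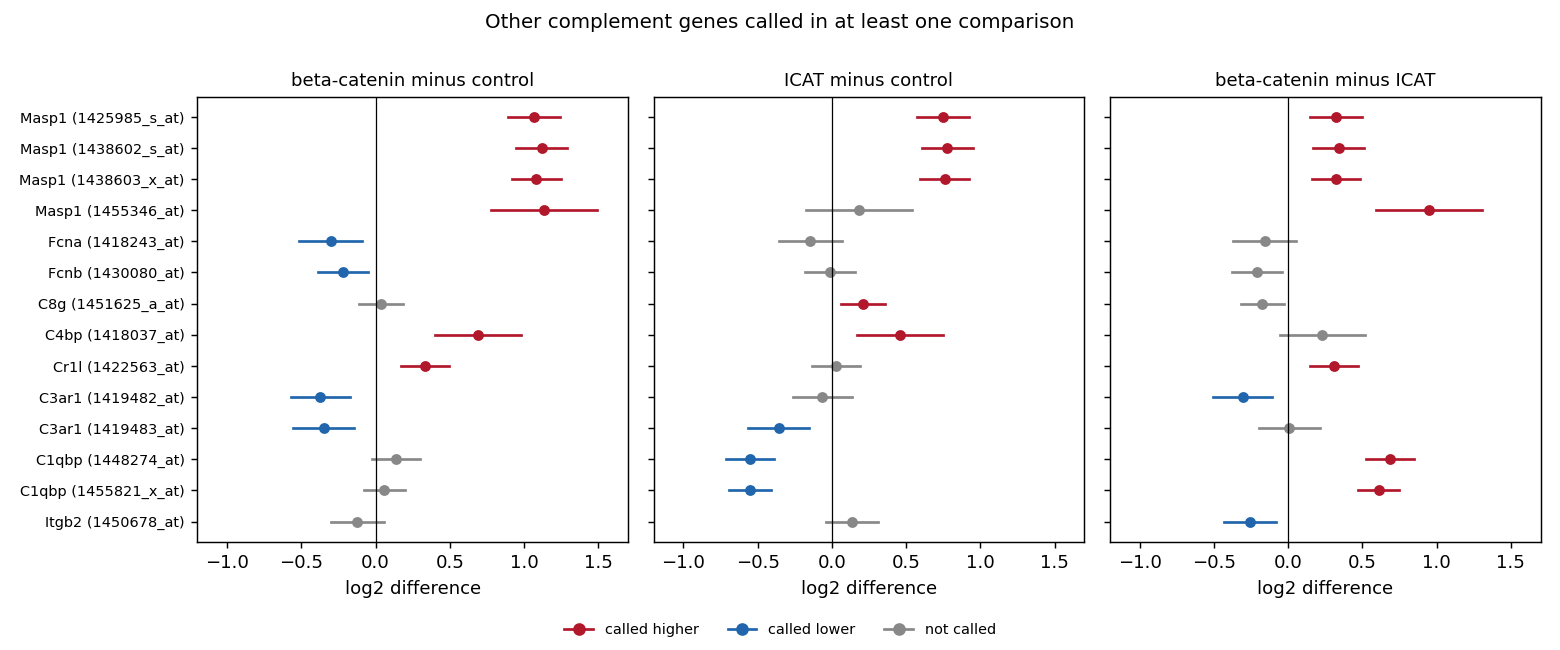
Log2 differences with 95% confidence intervals (limma) of the 14 probe sets of other complement genes that were called in at least 1 of the 3 comparisons. The Masp1 intervals lie to the right of 0 in both comparisons with control, except that of 1455346_at in ICAT cells, which spans 0, and those of C1qbp lie to the left of 0 in ICAT cells.

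The genes whose pattern over the 9 arrays was most like that of a member were taken by Pearson's r among 15235 genes. For C1ra they were Parp14 (r = 0.992), an interferon-stimulated ADP-ribosyltransferase gene, Arnt (0.991) and Fabp4 (0.990), which encodes a fatty acid binding protein. For C1s1 they were the actin-binding protein gene Cotl1 (0.994), Ptgr2 (0.990) and Ifitm2 (0.989), an interferon-induced membrane protein gene. For Clu they were Tmem176a (0.996), Abhd4 (0.995) and Erlec1 (0.994). Without ICAT replicate 1, which was left out after seeing the data, these 9 correlations lay between 0.982 and 0.995. For Cfp, whose probe set 1447537_at differed less between the groups, they were Pla2g15 (0.952), which encodes a lysosomal phospholipase, Trappc1 (0.947) and Zfp707 (0.943). The arrays share their groups, so that r is largely set by the group means. All 3 genes picked for C1ra had its order of group means, which their choice by r largely fixed. In beta-catenin, ICAT and control cells Parp14 averaged 6.90, 7.63 and 5.99, Arnt 9.19, 9.41 and 8.93, and Fabp4 7.70, 8.78 and 6.03. Clu correlated with C1s1 at 0.977 and with C1ra at 0.967, and without ICAT replicate 1 at 0.971 and 0.948. C2 correlated with these 3 at -0.23 to -0.31, and at -0.08 to -0.16 without that array.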

How the data were processed

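RNA from 9 samples was hybridised to Affymetrix arrays after 3′ IVT labelling, per the labels' protocols. The authors deposited log2 values, and the submitters' processing notes name RMA and affy, without a version in what was used here. RMA corrects background, makes the arrays' distributions equal and summarises probes, so a shift of all genes would not be seen. No 2 arrays were identical. Of 45037 probe sets 34945 had 1 gene symbol in the platform annotation, 932 several and 9160 none, and symbols were updated by Entrez identifier (34741 matched in RefSeq).

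The members and lists were chosen with earlier results of these data known. The 33545 probe sets reaching 5 on 3 or more arrays were fitted with limma 3.58.1 in R 4.3.3, with 1 mean per group and no block (6 residual and 5.32 prior degrees of freedom). Tests were two-sided with Benjamini-Hochberg adjustment over all probe sets tested, in each comparison, and called under 0.05. Intervals are 95 percent. The value 5 is a chosen limit, not a measured background. Every probe set of the members is covered, some only by a difference or within a range over several probe sets. Each other complement gene called in any comparison is named. Like genes were the 3 with the highest Pearson r to each member's brightest probe set, given for the 4 called members. Summed signals are of 2 to the power of the log2 value over each gene's brightest probe set. With 3 against 3, exact permutation reaches no p under 0.1, and it was not used.

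The fit was tested on simulated data of 33545 probe sets, 200 of them changed. For beta-catenin against control it recovered 2 percent of 1.2-fold, 70 percent of 1.5-fold and 98 percent of 2-fold changes. Of its calls there 1.46 percent were false. For ICAT against control it recovered 8, 82 and 98 percent, and 4.64 percent of its calls were false. The simulation gave all groups 1 spread, whereas ICAT arrays varied most. It also changed a far smaller share of probe sets than the 29.7 and 31.6 percent called in these data. The adjustment for many tests is stricter in that setting, so these percentages do not describe recovery in the data. Alternatives were no filter, a filter of 7, 1 probe set per gene, 6 arrays only, a replicate block, array weights, median centring, a trend in the spread, and each array left out.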

Additional observations from a re-analysis of the deposited data

How the results depend on the processing

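With 1 probe set per gene the counts of called members were 4 in beta-catenin cells, 5 in ICAT cells (4 higher and 1, Cfi, lower) and 3 between the lines, out of 9 genes tested, because Clu then counts once and not 4 times. Over all 15235 genes so tested 5321 (34.9 percent), 5670 (37.2 percent) and 6155 (40.4 percent) were called. The counts over 16 probe sets were 7, 7 and 6. With 1 array left out in turn they ran from 6 to 8, from 7 to 8 and from 6 to 7, and in the remaining settings from 7 to 8, 7 to 8 and 6 to 7. No member's called difference changed sign. Over single member probe sets, 6 alternatives lost a call (all C1s1 in beta-catenin cells) and 5, 5 and 3 gained 1 in the 3 comparisons.

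With the replicate block the counts were 7, 8 and 6, and Cfi was called lower in ICAT cells (adjusted p = 0.0336). No label ties the replicate numbers to a day or culture, and whether they pair the samples is not settled here. Deviations of same-numbered arrays correlated at -0.115 to 0.37, and those of differently numbered arrays at -0.39 to 0.321. The highest value was that of beta-catenin replicate 3 with ICAT replicate 3 (0.37). However, beta-catenin replicate 1 correlated more with ICAT replicate 2 (0.321) than with ICAT replicate 1 (0.144).

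Over all probe sets the calls in beta-catenin cells numbered 9947, and 15412 with array weights, which gave ICAT replicate 3 the lowest weight (0.263). The main counts over all probe sets in the other comparisons were 10605 and 11669. Dim probe sets limit what can be seen of Serping1, Cfb and the dimmer C2 probe sets. On control arrays C1ra (5.09 to 6.01) and C1s1 (5.47 to 6.04) were dim as well. Their folds against control thus rest on control values near the filter of 5. The 3 arrays per group limit the precision.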
